A study of Homo sapiens with 8 samples.

Results

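The HOX genes of the human genome are 39 homeobox genes in 4 clusters, HOXA on chromosome 7, HOXB on chromosome 17, HOXC on chromosome 12 and HOXD on chromosome 2. They were followed here in maps of N6-methyladenosine (m6A) in U2OS cells, a human osteosarcoma line. A peak was a member when its deposited gene name was HOXA, HOXB, HOXC or HOXD followed by digits alone, so that the antisense RNAs of the clusters were left out. By this rule 38 of the 15730 peaks of control cells and 29 of the 13219 peaks of DF2 siRNA cells were members. They belonged to 25 of the 39 HOX genes, among 10577 genes with a peak in either list.

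Cytoplasmic RNA of U2OS cells was broken into short fragments, and an antibody against m6A enriched the methylated fragments. There were 8 libraries in 4 groups of 2, namely input and m6A-enriched RNA from control cells and from cells treated with a DF2 siRNA. DF2 stands for YTHDF2, a reader protein of the cytoplasm that recognises m6A and promotes decay of the mRNA it holds. The labels do not say whether control cells received a control siRNA, nor whether DF2 siRNA #1 and #2 are different siRNAs. The values used here were 1 peak list per condition, shared by both immunoprecipitates of that condition, so no value has a replicate and no difference between the lists has a test. YTHDF2 itself had 1 peak in each list, enriched 124-fold in control and 52.3-fold in DF2 siRNA. A peak reads enrichment over a part of an mRNA and is no measure of how much of that mRNA a cell holds, so the knockdown could not be checked from these values.

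HOX genes encode DNA-binding transcription factors that give cells of the embryo their position along the head-to-tail axis. Within a cluster the genes lie in the order in which they act along that axis, and genes of the same number in different clusters, called paralogs, derive from a common ancestral gene. Low numbers act towards the head, high numbers towards the tail and, in the limbs, towards the digits. Many adult cells and cell lines keep a HOX pattern of the site they came from. m6A is placed cotranscriptionally on mRNA, often near stop codons and in long exons, within a short motif around the methylated A that frequently holds the letters GGAC.

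HOXD10 is shown first with sequence, since its main peak ran through the start of the gene. That peak had blocks between chr2:176108790-176117475 on the plus strand (hg38) in both lists, and covered 249 bases of the 300-base RefSeq window around the HOXD10 start (GRCh38.p14). The window held GGAC on the gene's strand at 2 places, shown in capitals within 30 bases each. Counted from the start as position 1, the copy at position 22 lay in the peak of both lists, and the copy at position -222, upstream of the start, lay outside it.
HOXD10, chr2:176116786-176116815, in the peak: gtcagcctacaaaGGACacaatctctcttc
HOXD10, chr2:176116543-176116572, outside the peak: gccctggagaggcGGACaggagggcggcgg

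HOXD11, the next gene of the cluster, had 44 bases of its window in its first peak, and the only GGAC of that window on the gene's strand lay at position -111, outside the peak.
HOXD11, chr2:176107156-176107185, outside the peak: gatatagatataaGGACatttctcttcatg

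GGAC was common: 66.3% of the 35116 RefSeq windows of this length held it on the gene's strand, and 87.4% held it on either strand. Such a match is a description of letters and marks no methylated base. Sequence under the other peaks was not analysed here. The 6 microRNA genes of the clusters searched for (MIR10A, MIR10B, MIR196A1, MIR196A2, MIR196B and MIR615) had no peak over their hairpin in either list.

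Of the 39 HOX genes, 17 had a peak in both lists, 6 in control only, 2 in DF2 siRNA only and 14 in neither. That is 59.0% of HOX genes with a control peak, beside 39.7% of the 20056 protein-coding genes of RefSeq. In DF2 siRNA it was 48.7%, beside 36.1%, and in either list 64.1%, beside 42.2%. The genes of both lists included HOXA5, HOXA6, HOXA11, HOXA13, HOXB3, HOXB6, HOXB13, HOXC6, HOXC8, HOXC9, HOXC10, HOXC11, HOXC13, HOXD9, HOXD10 and HOXD11. HOXA3, HOXA4, HOXA10, HOXB5, HOXB7 and HOXD8 had peaks in control only, and HOXC4 and HOXC5 in DF2 siRNA only. Of the 23 HOX genes with a control peak, 73.9% also had a DF2 siRNA peak, beside 79.7% of all genes with a control peak. In the other direction it was 89.5% of 19 HOX genes, beside 92.9% of all genes. These shares are near those of all genes.

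The clusters were covered unequally. HOXC had a peak in either list for 8 of its 9 genes, with HOXC12 missing, and HOXA for 8 of its 11, with HOXA7 and HOXA9 among those missing. HOXB had 5 of 10, without HOXB1, HOXB2, HOXB4, HOXB8 and HOXB9. HOXD had 4 of 9, the adjacent genes HOXD8 to HOXD11, without HOXD1, HOXD3, HOXD4, HOXD12 and HOXD13. HOXC was the cluster with more genes in the DF2 siRNA list (8) than in control (6). For HOXA the counts were 5 and 8, for HOXB 3 and 5, and for HOXD 3 and 4. Peaks numbered 13 in control and 7 in DF2 siRNA for HOXA, 9 and 7 for HOXB, 9 and 9 for HOXC, and 7 and 6 for HOXD.

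By paralog number, every member of groups 5, 6, 10 and 11 had a peak in at least 1 list, and no member of groups 2 and 12 did. Group 6 (HOXA6, HOXB6, HOXC6) and group 11 (HOXA11, HOXC11, HOXD11) were complete in both lists. Paralogs 9 to 13, which act in the trunk, tail and distal limb, had a control peak for 11 of 16 genes and a DF2 siRNA peak for 10. Those 10 genes were in both lists. Paralogs 4 to 8 had 9 and 7 of 15 genes, with 5 in both, and paralogs 1 to 3 had 3 and 2 of 8. Of the genes found in 1 list only, all but HOXA3 and HOXA10 belong to paralogs 4 to 8.

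Fold enrichment is the authors' ratio per peak, and a gene is described by its best peak, the one with the highest ratio. For the best peaks of paralogs 9 to 13 the median ratio was 45.5 in control and 31.7 in DF2 siRNA. For paralogs 4 to 8 the medians were 17.7 and 9.41. Values were thus higher in the tailward genes than in the middle genes of both lists. Paralogs 1 to 3, with 3 genes in control and 2 in DF2 siRNA, are not summarised by a median. The deposited score, a whole number without a stated meaning, gave the same order, with medians of 376 for paralogs 9 to 13 and 56 for paralogs 4 to 8 in control, and 121 and 28 in DF2 siRNA. Over all genes the median best fold enrichment was 28.9 in control and 23.0 in DF2 siRNA, and 10 of 23 and 7 of 19 HOX genes lay above it.

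Paralogs 10, 11 and 13 included the highest HOX values. HOXA13, which is needed for digits and the urogenital tract, had the highest control peak of all HOX genes, at chr7:27197794-27199306 on the minus strand, with a fold enrichment of 122 and 347 higher peaks in the whole list. HOXD11, which patterns the forearm and kidney, had a main peak at chr2:176107875-176109644 on the plus strand, with 105 in control and 59.3 in DF2 siRNA. HOXD10, active in the lumbar spinal cord and hindlimb, had 103 and 55.2 at the interval given above. That peak begins upstream of the HOXD10 gene of RefSeq (chr2:176116778-176119937), inside the span of HOXD11 (chr2:176107280-176115679). The value is thus not of HOXD10 alone. The stop codon peak within HOXD10 had 26.9 in control and 26.8 in DF2 siRNA.

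HOXC11 had the highest HOX peak of the DF2 siRNA list, with 112 at chr12:53973726-53975978 on the plus strand, against 81.1 in control at chr12:53973926-53975978. Its neighbour HOXC10, a gene of lumbar motor neurons, had 45.5 in control and 44.2 in DF2 siRNA at its main peak. HOXA11, the paralog of HOXD11 in forearm and kidney, had 42.9 and 31.2. HOXB13, a transcription factor of the prostate, had 50.3 and 32.3, and HOXC13, a factor of hair and nails, had 25.3 and 20.9. Among all of these the lowest control value was that of HOXC13, and the others lay above the 32.8 of HOXB6 and HOXB7, the highest of the lower paralogs.

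HOXC9, which sets thoracic motor neuron identity, had 29.2 in control and 13.9 in DF2 siRNA, and HOXD9 had 28.6 and 8.79. HOXA10, a factor of the uterus, had 13.5 in control alone, the lowest control value of paralogs 9 to 13.

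Among paralogs 4 to 8, HOXB6 was highest in DF2 siRNA, with 40.4, beside 32.8 in control. Those best values come from different peaks: the control value belongs to a coding and 5′ UTR peak at chr17:48597792-48603845 on the minus strand, and the DF2 siRNA value to the stop codon peak at chr17:48595955-48596554. HOXC6, a gene of thoracic and mammary development, had 16.0 and 17.0, and HOXC8 had 15.7 and 4.35. HOXA6 had 20.9 in control, from a peak at chr7:27145396-27150603 that lies partly in the HOXA6 gene of RefSeq and extends upstream of it. In DF2 siRNA it had 19.4, from a peak wholly beyond that gene. The DF2 siRNA peak within the gene, at chr7:27145396-27145880, had 7.44. HOXA5, a factor of lung development, had 17.7 in control and 8.11 in DF2 siRNA, again at different peaks, since its control peak at the start of the gene had no DF2 siRNA counterpart.

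Of paralogs 1 to 3, HOXB3, a gene of the hindbrain and pharyngeal arches, had 23.2 in control and 9.24 in DF2 siRNA, both at its 5′ UTR peak. That peak, chr17:48582604-48604912 on the minus strand, extends outside the HOXB3 gene of RefSeq (chr17:48548870-48590241). It shares 433 bases with the 5′ UTR peak of HOXB6. The stop codon peak within HOXB3 had 17.5 in control and 7.81 in DF2 siRNA.

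Control-only values were 32.8 for HOXB7, 24.1 for HOXB5, 16.5 for HOXA4, 14.6 for HOXD8, 13.5 for HOXA10 and 5.83 for HOXA3, a gene of the thymus and pharyngeal arches. HOXB7 stood out among them with a score of 245. DF2 siRNA-only values were 9.41 for HOXC4 and 7.41 for HOXC5. For comparison, all 2021 control-only genes had a median best fold enrichment of 10.6, and all 606 DF2 siRNA-only genes 9.96. Most single-list genes were thus above these medians, HOXA3, HOXC4 and HOXC5 below. HOXC4 lay close to the limit of its list, with a −log10 value of 1.47 where the lowest in the list was 1.30, while HOXC5 had 4.89. The header calls this value an FDR in DF2 siRNA and a p-value in control, yet the lowest value is 1.30 in both lists, so whether they are the same quantity is unclear.

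**Figure D1:**
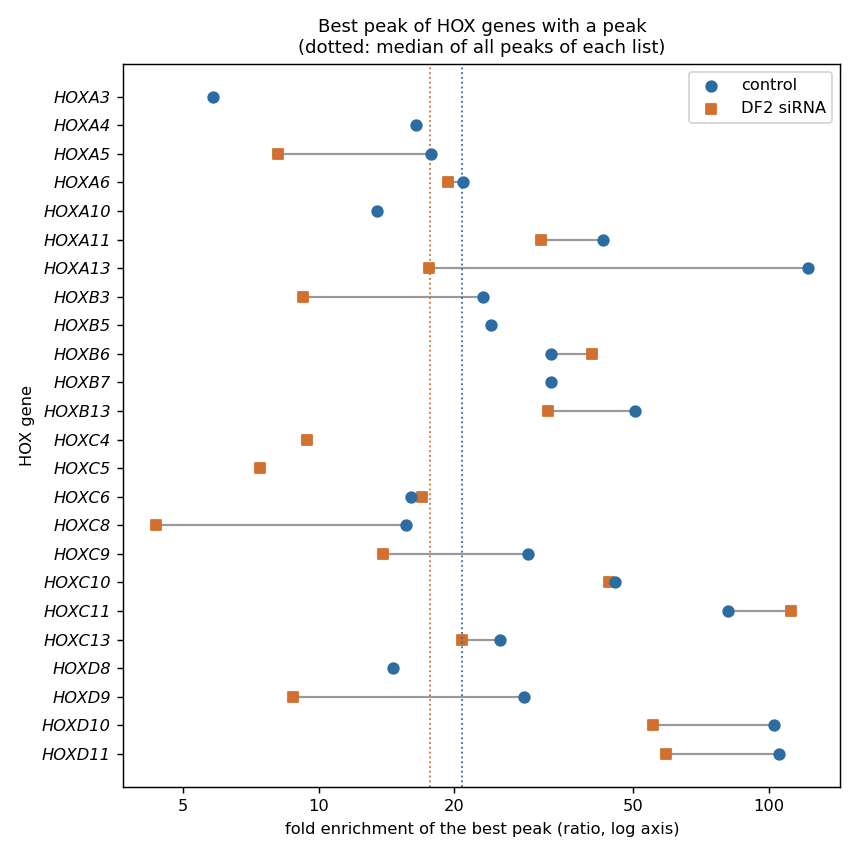
The fold enrichment of the best peak is plotted on a log axis for 24 HOX genes with a peak, blue circles for control and orange squares for DF2 siRNA, with dotted lines at the median of all peaks of each list (20.8 and 17.7). In 13 of the 16 plotted genes of both lists the square lies left of the circle. The widest gap is that of HOXA13, whose best peaks in the lists differ in extent.

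The lists have no common scale, since depth is unknown and fold enrichment as a whole was lower in DF2 siRNA, with a median over all peaks of 20.8 in control and 17.7 in DF2 siRNA. The values of 1 gene are therefore given side by side and read against all genes. The best fold enrichment was lower in DF2 siRNA in 14 of the 17 HOX genes of both lists, beside 70.3% of the 7950 genes of both lists. In HOXA5 and HOXB6, among others, the best peaks of the lists lie at different places. The DF2 siRNA value of HOXA6 comes from the peak beyond its gene, and its control value from a peak that runs beyond it. The median ratio of DF2 siRNA to control was 0.562 in these HOX genes and 0.740 over all such genes, whose middle 50% ran from 0.467 to 1.08. HOXA13 was the farthest from 1, with 122 in control and 17.6 in DF2 siRNA, a ratio of 0.144. Its best peaks overlap but differ in extent, with 800 nt in control and 600 nt in DF2 siRNA. The 3 genes with a higher value in DF2 siRNA were HOXC11 with a ratio of 1.38, HOXB6 with 1.23 and HOXC6 with 1.06. With 17 genes and no replicates, the HOX count was not tested.

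Intervals with the same start and end in both lists allow the same bases to be set side by side. There were 9 such HOX peaks among 4643 of all genes. Fold enrichment was lower in DF2 siRNA in 8 of the 9, beside 62.3% of all identical intervals. The median ratio was 0.575 in the 9 HOX peaks, with a range from 0.391 to 1.82, and 0.864 over all. The exception was the peak at the start of HOXC10, chr12:53985065-53985552, with 10.2 in control and 18.6 in DF2 siRNA.

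The score ratio of the 9 had a median of 0.269, from 0.0880 for the 5′ UTR peak of HOXB3 to 1.13 for that HOXC10 peak, and 0.425 over all. Not all 9 are independent. The 5′ UTR peaks of HOXB3 and HOXB6 share 433 bases, which is 72.2% of each. The main peaks of HOXD10 and HOXD11 share 452 bases, which is 28.3% and 45.2% of them. Reads over shared bases cannot be told apart between those genes, and the lists count them under both.

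Peaks were compared by overlap, counted from 1 shared exonic base on the same strand. In control, 28 of 38 HOX peaks (73.7%, 95% exact binomial interval 56.9 to 86.6) overlapped a DF2 siRNA peak, beside 71.9% of all control peaks. In DF2 siRNA, 27 of 29 (93.1%, interval 77.2 to 99.2) overlapped a control peak, beside 87.5% of all. Both intervals, which cover counting error only, hold the value of all peaks. The 2 DF2 siRNA peaks without a control counterpart were those of HOXC4 and HOXC5. The 10 control peaks without one included those of HOXA3 (2), HOXA4, HOXA10, HOXB5, HOXB7 and HOXD8, and 1 peak each of HOXA5 and HOXA13.

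The extent of sequence in peaks differed by cluster. HOXA peaks covered 8425 exonic bases in control and 3792 in DF2 siRNA, and 42.6% of the control bases were also in DF2 siRNA peaks. HOXC peaks covered 5400 and 6800 bases, and 88.9% of the control bases were in both. With bases in peaks of more than 1 gene counted once, HOXB had 6034 and 3967 bases and HOXD 4748 and 3548, and in both of these clusters every DF2 siRNA base lay within a control peak. Within single genes of both lists, the DF2 siRNA peaks covered fewer bases in 12 of 17, beside 50.9% of all genes of both lists, and more in 5, which were HOXA11, HOXC6, HOXC10, HOXC11 and HOXC13. In 12 of the 17 every DF2 siRNA base was inside the control peaks, beside 67.1% of all such genes.

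HOXA13 had 2286 bases in 3 control peaks and 1200 in 2 DF2 siRNA peaks, all of the latter inside the former. HOXC11 had 800 and 1000 bases, the surplus in DF2 siRNA being 200 bases towards its start. HOXC6 had 800 and 1200 bases, with 600 in both. Over all 17 genes, 76.5% of control bases were in DF2 siRNA peaks, beside 76.9% over all genes of both lists.

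**Figure D2:**
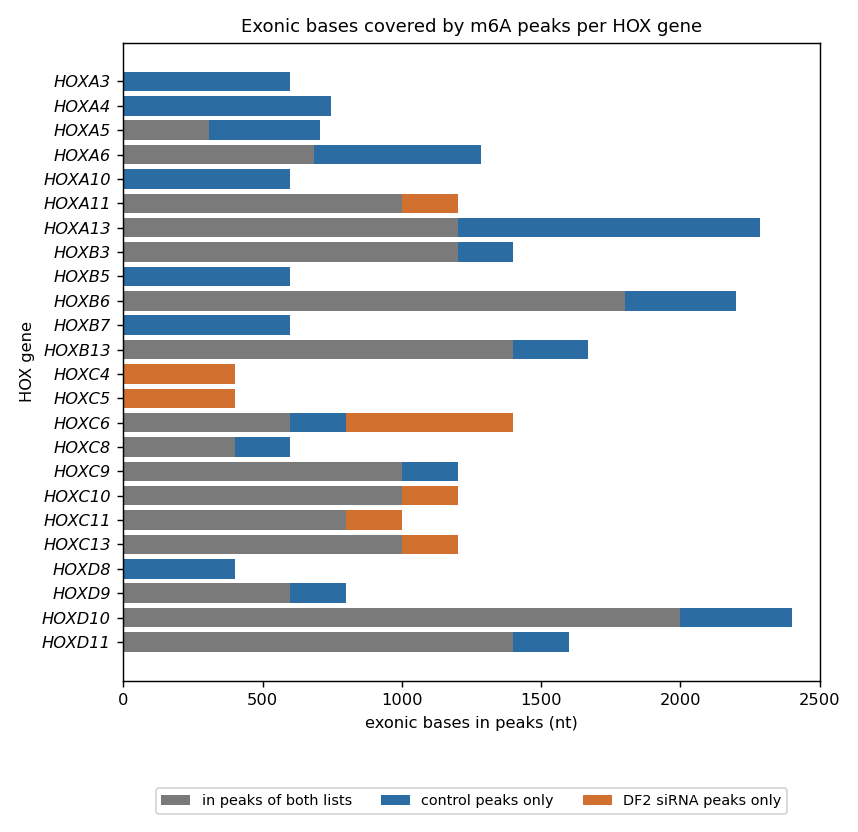
Bars give the exonic bases in peaks for 24 HOX genes in nt, split into bases in peaks of both lists (grey), of control only (blue) and of DF2 siRNA only (orange). Orange parts occur in HOXA11, HOXC4, HOXC5, HOXC6, HOXC10, HOXC11 and HOXC13, so all but that of HOXA11 are in the HOXC cluster.

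**Figure D3:**
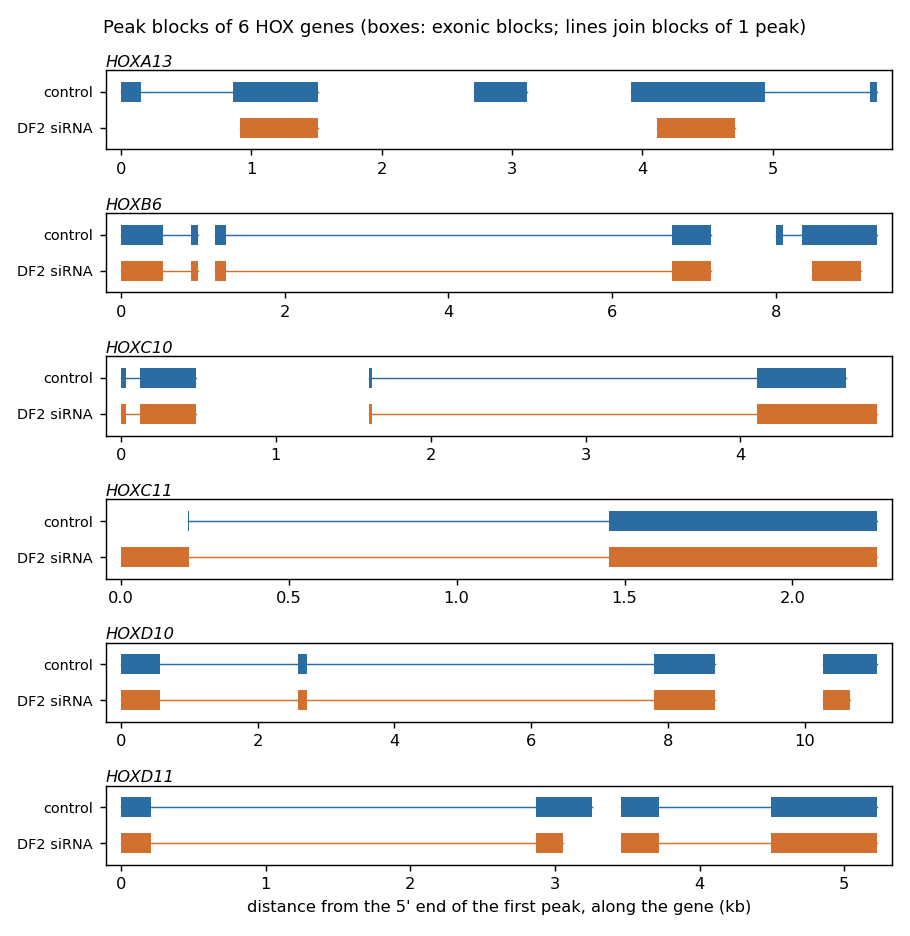
Peak blocks of 6 HOX genes are drawn to scale by distance in kb from the 5′ end of the first peak along the gene, control in blue above and DF2 siRNA in orange below, with lines joining the exonic blocks of 1 peak. HOXA13 has 3 control and 2 DF2 siRNA peaks, and the main peaks of HOXD10 and HOXD11 have the same blocks in both lists.

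Most HOX genes with a peak had one at the stop codon. The authors' label named the stop codon in 22 of 38 control HOX peaks (57.9%, 95% exact binomial interval 40.8 to 73.7), beside 42.7% of all control peaks. In DF2 siRNA it was 16 of 29 (55.2%, interval 35.7 to 73.6), beside 43.7%. The interval of the control HOX peaks holds the share of all control peaks, and so does that of DF2 siRNA. Of the HOX genes with a peak, 19 of 23 had one at the stop codon in control, all but HOXA4, HOXA5, HOXA6 and HOXB5, beside 58% of all genes with a control peak. In DF2 siRNA it was 15 of 19, beside 59.2%, and those without one included HOXA5, HOXC4 and HOXC5. A peak with this label was the best peak in 16 of the 23 genes, beside 51% of all genes, and in 13 of the 19, beside 52.2%. These differences were not tested. The best peak of HOXD10, which has this label, begins inside the RefSeq span of HOXD11. The sets of all peaks and all genes include non-coding RNAs, which have no stop codon, while the HOX members are named for protein-coding genes. The member rule by itself thus favours higher stop codon shares. Among HOX peaks of at most 400 nt the share was 30% in control and 27.3% in DF2 siRNA.

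A peak often bears several labels. Coding sequence was named in 73.7% of control HOX peaks, beside 61.7% of all control peaks, and in 72.4% of DF2 siRNA HOX peaks, beside 66.4%. The 3′ UTR was named in 73.7%, beside 55.2%, and in 72.4%, beside 55%. The 5′ UTR was named in 34.2%, beside 24.3%, and in 31.0%, beside 25.9%. Non-coding RNA was named in 5.26%, beside 15.5%, and in 3.45%, beside 11.8%. The member rule took names of protein-coding genes alone, so it favours a low share here and higher shares for the parts of an mRNA. The 3′ UTR intervals of the HOX peaks, 56.9 to 86.6% in control and 52.8 to 87.3% in DF2 siRNA, lay above the share of all peaks in control alone. No label was given for 1 of the 29 DF2 siRNA HOX peaks, beside 1.86% of all DF2 siRNA peaks, and for 0 of the 38 control HOX peaks, beside 2.4%. A peak with coding and 5′ UTR labels and no stop codon label was present in control in HOXA5, HOXA6, HOXB5, HOXB6, HOXC10 and HOXD9.

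**Figure D4:**
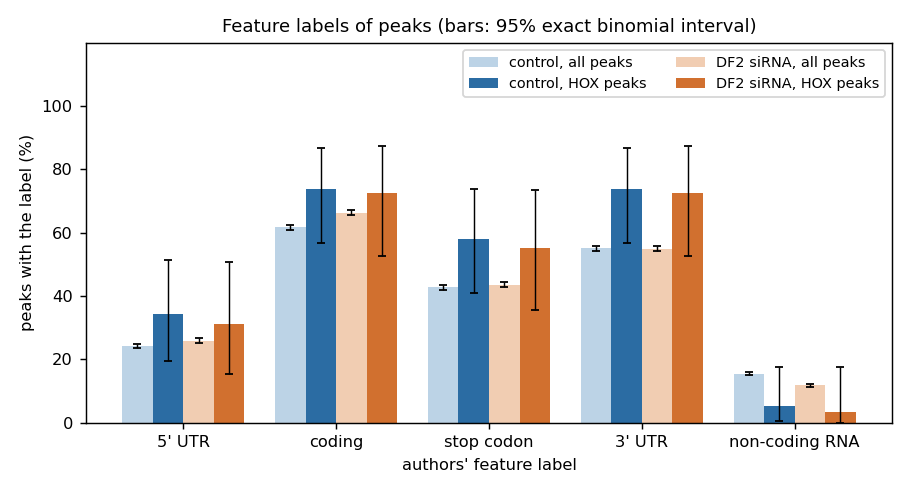
Bars show the percentage of peaks that carry each feature label, pale for all peaks and dark for HOX peaks, in blue for control and orange for DF2 siRNA, and error bars are 95% exact binomial intervals of counting error. The HOX bars exceed those of all peaks for the 4 labels of mRNA parts and lie below them for non-coding RNA, with wide intervals for the 38 and 29 HOX peaks. The member rule favours this direction, since HOX members are named for protein-coding genes and all peaks include those of non-coding genes.

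Several HOX genes had more than 1 peak: 13 of 23 in control, beside 38.9% of all genes with a control peak, and 9 of 19 in DF2 siRNA, beside 37.4%. HOXB6 had 3 peaks in each list and HOXA13 had 3 in control. Widths were ordinary, with a median of 600 nt for HOX peaks and for all peaks in both lists, and a range of 200 to 1600 nt for HOX. The widest was the main peak of HOXD10, in both lists. Median fold enrichment over HOX peaks was 20.9 in control, close to the 20.8 of all peaks, and 13.9 in DF2 siRNA, below the 17.7 of all peaks. Median scores were lower than in all peaks, 84 beside 143 and 28 beside 74.

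Some peaks lie where genes of the clusters overlap, and their gene name is then a choice of the authors' annotation. The DF2 siRNA peak of HOXC5 at chr12:54034554-54034953 shares 381 bases (95.3%) with a peak named for the non-coding gene RP11-834C11.14 on the same strand. The control peak of HOXA10 shares 218 bases with a peak of HOXA10-AS on the other strand, and the latter had a fold enrichment of 83.6. Whether counting used strand is not stated in any source used here. A DF2 siRNA peak named HOXA6, chr7:27150404-27150603, lies beyond the HOXA6 gene of RefSeq (chr7:27145396-27147774) and inside the span of HOXA3, and has no feature label. Genes were also assigned by RefSeq position in place of the deposited name, with a peak block inside the span of exactly 1 HOX gene. Control then held 18 HOX genes in place of 23, without HOXA4, HOXA5, HOXA6, HOXB5 and HOXC6. DF2 siRNA held 16 in place of 19, without HOXA5, HOXA6, HOXC5 and HOXC6 and with HOXA3 added. Both lists shared 15 genes in place of 17. The RefSeq spans of HOXA4, HOXA5 and HOXA6 lie inside that of HOXA3, and those of HOXC5 and HOXC6 inside that of HOXC4. Such genes could not be counted under this rule, whatever their peaks. HOXB5 is not nested in this way. Its control peak, chr17:48593362-48593961, runs past the end of its RefSeq span (chr17:48591257-48593779) and so was not inside it. The lower counts by themselves do not show that the deposited names are wrong.

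The other transcripts of the clusters were described from lists of genes by role. Non-coding RNAs of the clusters had a peak in 6 of 18 cases, 5 in both lists. HOXA10-AS had 83.6 in control and 37.9 in DF2 siRNA, HOXA11-AS 39.6 and 22.1, HOXC-AS3 17.9 and 3.71, HOXC-AS2 12.5 and 6.09, and HOXC13-AS 11.5 and 7.85. HOTAIR, an antisense RNA between HOXC11 and HOXC12 known for its link to Polycomb proteins, had 21.3 in control alone. All 5 found in both lists had the lower value in DF2 siRNA, beside the 70.3% of all genes given above. Of 12 protein-coding neighbours of the clusters, LNPK beside HOXD had peaks (19.7 and 13.9) and the other 11 had none. Of protein-coding genes of RefSeq, 42.2% had a peak in either list.

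Genes for partners of HOX proteins, and for proteins related to partners, were described next. Within the TALE homeodomain class, PBX and MEIS proteins bind DNA together with HOX proteins. Of 11 genes of this class, 9 had a peak, 7 in both lists. Of protein-coding genes, 42.2% had a peak in either list. TGIF2 had 151 and 127, TGIF1 85.4 and 46.5, MEIS2 80.8 and 16.2, and PBX2 24.5 and 53.4. PBX4 (5.38) was found in control only and MEIS3 (8.85) in DF2 siRNA only. Of 9 cofactors and partners, 5 had peaks in both lists and SMAD4 (13.4) in control only. The acetyltransferases EP300 and CREBBP had 113 and 79.2, and 94.3 and 126. SMAD1 had 70.6 and 57.3, and the corepressor NCOR1 56.7 and 63.0. The best fold enrichment was lower in DF2 siRNA in 5 of the 7 TALE genes and 2 of the 5 cofactors of both lists. Over all genes of both lists it was lower in 70.3%.

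Regulators that hold HOX clusters active or silent, the trithorax and Polycomb proteins and their partners, had peaks for 21 of 26 genes, 19 in both lists. The share over protein-coding genes was 42.2% in either list. The Polycomb genes BMI1 and CBX2 had 98.8 and 18.8, and 85.4 and 138. The demethylase KDM6B had 84.0 and 156, and the methyltransferase DOT1L 69.9 and 146. EZH1 (8.87) was in control only and RING1 (28.6) in DF2 siRNA only. In 10 of the 19 the value was lower in DF2 siRNA, beside 70.3% of all genes of both lists.

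Genes upstream of HOX expression, of retinoic acid signalling and the caudal family among them, had peaks for 9 of 16, 8 in both lists. The share over protein-coding genes was again 42.2% in either list. The retinoic acid receptor RARA had 99.2 and 172, and GDF11, a secreted factor of the trunk-to-tail transition, 77.3 and 59.0. RARG (10.8) was in DF2 siRNA only. The value was lower in DF2 siRNA in 3 of these 8, beside 70.3% of all genes of both lists.

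Homeobox genes outside the clusters gave the nearest comparison. Of 129 such genes 36.4% had a peak in either list, beside the 64.1% of HOX genes, and 43 had one in both. These 129 leave out the TALE genes listed above, with a peak for 9 of 11. They also leave out, among others, the caudal genes CDX1, CDX2 and CDX4 and the cluster neighbours EVX1 and EVX2, none of which had a peak. Their median best fold enrichment was 46.3 in control and 33.7 in DF2 siRNA, above the 25.3 and 17.6 of the HOX genes. In 31 of the 43 the value was lower in DF2 siRNA, near the 70.3% of all genes of both lists. SIX4 had 187 and 47.6, DLX4 148 and 60.7, and ADNP2 142 and 40.6. PITX1 had 84.9 and 191, CUX1 76.7 and 160, and IRX3 50.7 and 138. HHEX (15.1), POU2F3 (11.7) and LHX6 (9.28) were in control only and MSX1 (21.0) in DF2 siRNA only. The difference between the 2 sets was not tested, since which homeobox genes these cells transcribe was not measured in the values used here.

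Genes that mark cell types bear only loosely on the label, since a peak needs a transcript but no peak says little about it. Of 8 osteoblast lineage genes RUNX2 and COL1A1 had peaks in both lists, and of 5 epithelial genes KRT8 did.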

How the data were processed

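The authors deposited 2 lists of m6A peaks, 1 per condition, each tied by the labels to both immunoprecipitates of that condition. HISAT2 and hg38 are named in the submitters' processing notes. Not given in the sources used here are the aligner's version, peak caller, annotation, filters, depth and strand setting. Each peak has a deposited fold enrichment, a ratio whose reference is not stated. The deposited −log10 value is of a p-value in control and of an FDR in DF2 siRNA, per the file headers. A deposited score, whole but of unstated meaning, completes each peak. All are the authors' values, used to describe peaks.

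Coordinates are counted from 1. On the minus strand, block sizes were listed in transcript order: as listed, the blocks fill the span in 48.3% of 14057 peaks, and reversed in 100%, so they were reversed. Overlap needed 1 shared exonic base on the same strand. The code was run on control peaks of chromosome 7, with a random part of them moved away. The expected counts came from the same code under a same-name rule, so that run could not reveal an error in the overlap rule. Gene positions, promoter windows and names come from RefSeq GRCh38.p14. A promoter window runs from 250 bases before to 50 after a gene's start and was found for 20 HOX genes. Of 10507 gene names 9164 matched RefSeq. Shares carry 95% Clopper-Pearson intervals. No p-value was computed, since each condition has 1 list.

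Every HOX gene is counted, and the values of some genes that the naming rule selects are not reported here. From other gene lists the text names the 3 highest per condition, up to 4 per direction found in 1 list only, and all cluster RNAs and neighbours with a peak. Members and lists were chosen with earlier results of these data known. Alternatives were stricter limits on fold enrichment, p or FDR and score, equal list lengths, 2 peaks per gene, RefSeq positions, other overlap rules, 1 label per peak and peaks of at most 400 nt. Python 3.11.15, pandas 2.3.3, numpy 2.4.6, scipy 1.17.1 and matplotlib 3.10.9 were used.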

Additional observations from a re-analysis of the deposited data

How the results depend on the processing

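No paired analysis was possible because the peak lists pool both immunoprecipitates of a condition, and for the same reason no replicate could be left out. Of 85 alternative values, 51 stayed within 1.5 times the count or within the counting interval and 34 moved; fewer peaks, by construction, give fewer genes. The counts of HOX genes in control, DF2 siRNA, both and DF2 siRNA only, 23, 19, 17 and 2 as reported, were 15, 9, 9 and 0 with the top 50% by fold enrichment, 11, 6, 6 and 0 with the top 50% by score, and 13, 9, 8 and 1 with 2 peaks per gene. With a p or FDR 100 times smaller, DF2 siRNA held 12, both 11, control only 10 and DF2 siRNA only 1. By its headers this limit is on a p-value in control and an FDR in DF2 siRNA, which may not hold, since both begin at 1.30. By RefSeq position, control only held 3 and DF2 siRNA only 1, under a rule that could not count a gene lying inside another HOX gene. The number of genes lower in DF2 siRNA, 14 of 17 as reported, was 7 of 9, 5 of 6, 7 of 8 and 8 of 11 in the same order of settings. Paralogs 9 to 13 in both lists numbered 6 by score and 6 with 2 peaks. In the upper 50% by fold enrichment 0 neighbours and 3 cluster RNAs remained with a peak. Stop codon shares in peaks up to 400 nt wide were 30% in control and 27.3% in DF2 siRNA. With 1 label per peak, 3′ UTR, coding and 5′ UTR shares were 23.7, 13.2 and 5.26% in control and 17.2, 17.2 and 6.90% in DF2 siRNA. Overlap of HOX peaks ranged from 63.2 to 77.1% in control and from 82.8 to 93.1% in DF2 siRNA; block sizes in listed order, an alternative chosen after seeing the data, gave the same 73.7 and 93.1%. Depth is unknown, so the absence of a peak was not read as absence of m6A or of the transcript.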
